A study of Mus musculus with 22 samples.

Results

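The axon guidance ligands and receptors described here were the 70 gene symbols, of 17931 in the testes count table, whose names start as those of the semaphorins, plexins, neuropilins, netrins, UNC5 receptors, Slits, Robos, ephrins and Eph receptors do, together with *Dcc*. Of these 70, 68 encode a guidance ligand or receptor, and 2, *Unc50* and *Unc5cl*, were matched by their names only. The study asked what loss of MLX, a transcription factor of the extended MYC network that binds DNA as a heterodimer, does to male mice. RNA was sequenced from whole testes of 3 wild-type (WT) males, proven breeders, and of 3 age-matched *Mlx* knockout males (MLX KO), littermates numbered as 3 pairs, all aged 7 months. The knockout allele, made in embryonic stem cells, lacks exons 3 to 6 and with them the DNA-binding and dimerization domain. The deletion is constitutive and therefore present in every cell of the animal, so that no testis cell type was targeted separately. WT littermates carried no engineered allele that the sources name.

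The libraries held between 16674678 and 19742726 counts of reads per gene, and levels are given as CPM, counts scaled to the same library total after TMM adjustment for composition. Counts of *Mlx* itself were 128, 96 and 98 in WT libraries, and 94, 109 and 102 in MLX KO libraries. A count per gene can include reads from exons that the allele keeps, and reads per exon were not examined. The count is therefore no check of the labels, and directions are those of the libraries labelled KO relative to the libraries labelled WT. No pair of libraries agreed within sampling noise, and KO1 differed most from the other KO libraries. Without KO1, 30 of the guidance genes were called, among them all 27 called with it. Over all genes, 7395 were called without KO1 and 6649 with it. Library size alone moved the median log2 fold change (LFC) of all genes from 0.03 to 0.16 and the share of called genes that were higher from 54.7% to 80.8%, so all changes are relative to the scaling.

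Guidance cues were named for steering growing axons, and most act well beyond the nervous system. Semaphorins bind plexins, with neuropilins as co-receptors for the secreted class, netrins bind DCC, neogenin and UNC5 receptors, Slits bind Robos, and membrane-bound ephrins bind Eph tyrosine kinases on neighbouring cells, often with signals passing in both directions. Their downstream pathways converge on small GTPases that remodel actin and cell adhesion, and in many organs the same families pattern blood vessels and epithelia. The testis holds seminiferous tubules of Sertoli and germ cells, surrounded by myoid cells and an interstitium of Leydig cells, macrophages, vessels and fibroblasts, and whole tissue RNA mixes all of them.

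MLX heterodimers bind E-boxes, and the letters CACGTG, the palindromic E-box, were searched in the 250 bases before each RefSeq start, which covers both strands because the motif is its own reverse complement. A window was at hand for 60 of the 70 genes, and CACGTG stood in a window of 4 of them (6.67%), against 1181 of the 13707 gene symbols of the table with a window (8.62%). These 4 are shown with the motif in capitals and 12 bases on either side, each 5′ to 3′ on the gene's own strand, from RefSeq for GRCm38.p6 (the mm10 build). *Sema4b* and *Sema6d* rose in MLX KO testes, *Epha8* was not past the threshold and *Robo2* had too few counts to be tested. In *Sema4b*, *Sema6d* and *Robo2* the motif also lies within an annotated exon of another transcript of the gene.
Sema4b (chr7:80198474-80198503, + strand): ggtgcggcggccCACGTGaccaccttccct
Sema6d (chr2:124089934-124089963, + strand): cgagcgcagaagCACGTGggctaagggggt
Epha8 (chr4:136956947-136956976, - strand): ggcgggcgtgtgCACGTGctgccggccggt
Robo2 (chr16:75447294-75447323, - strand): tcaggctcgcctCACGTGgggaggagggag
The first base of the motif stood 102 bases before the start in *Sema4b*, 23 in *Sema6d*, 148 in *Epha8* and 18 in *Robo2*. Among the 23 called members with a window, 2 held the motif. *Robo4*, the member with the largest rise, held none in its window, of which the 175 bases before its first annotated exon are shown as the sequence next to the largest change.
Robo4 (chr9:37401722-37401896, + strand): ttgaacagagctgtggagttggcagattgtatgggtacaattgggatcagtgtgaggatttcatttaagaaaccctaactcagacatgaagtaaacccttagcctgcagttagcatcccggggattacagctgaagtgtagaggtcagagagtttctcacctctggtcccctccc

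In MLX KO testes, 23 guidance genes rose and 4 fell, among 60 with enough counts for the test. The largest rise was that of *Robo4*, the endothelial Robo, at 7.66 times its WT mean CPM, followed by *Nrp1*, a neuropilin, and *Ntn4*, a netrin of basement membranes. The largest fall was that of *Unc5a*, a repulsive netrin receptor, to 0.238 of its WT mean. A gene was called where the p of the quasi-likelihood test in edgeR, after Benjamini-Hochberg adjustment over all 14640 genes tested, was under 0.05. In whole tissue, fewer cells of a type and less RNA per cell cannot be told apart, and neither can more cells and more RNA per cell.

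The 27 calls made up 45.0% of the members tested, and 45.4% of all genes tested were called. By direction, 38.3% of members were called higher, with 24.8% over all genes, and 6.67% lower, with 20.6% over all genes. These shares over all genes also stand beside the counts of each family below. Rises of at least 1 on the log2 scale were found for 6 members (10.0%), with 5.68% over all genes, and a fall of that size for 1 member, with 0.355% over all genes. Of the 6 that rose, *Robo3* had enough counts for the test only through its KO libraries. The median LFC was 0.36 over the members and 0.03 over all genes. In none of the 27 called genes did the CPM values of the groups overlap, which by itself fixes the same direction in 3 of 3 pairs. With 3 libraries in a group, a call tends to need such separation, so neither adds support to the calls. Without regard to the call, groups did not overlap in 30 of the 60 members tested with KO higher, against 30.3% of all genes tested. With KO lower, this held for 5 of the 60 members, against 25.9% of all genes.

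**Figure D1:**
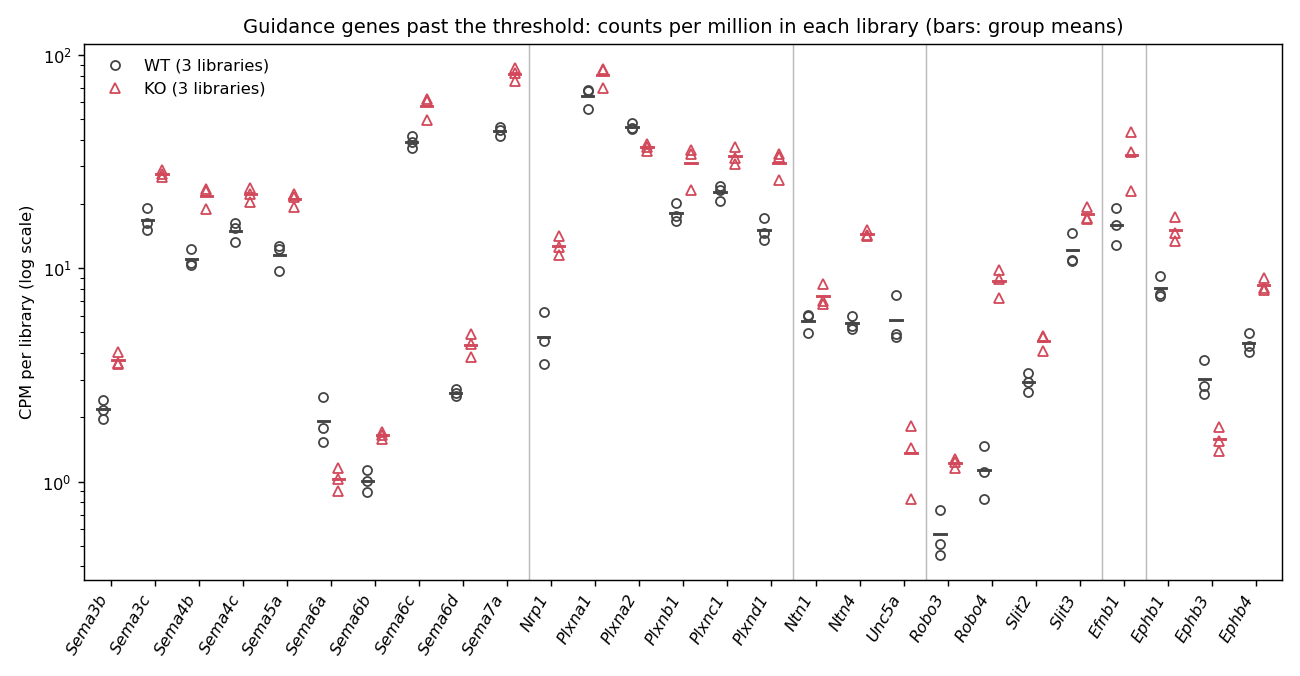
CPM (scaled counts, log scale) of the 27 guidance genes past the threshold in each WT (circles) and MLX KO (triangles) library, with horizontal bars at the group means and vertical lines between families. The 3 KO libraries lie above all WT libraries in 23 genes and below them in *Sema6a*, *Plxna2*, *Unc5a* and *Ephb3*.

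Semaphorins were the largest family, with 20 members, of which 18 were tested, 9 rose and 1 fell, and their median LFC was 0.55. Of the 7 secreted class 3 semaphorins, the partners of neuropilins, 5 were tested. *Sema3b* rose from 2.18 ± 0.222 to 3.73 ± 0.266 CPM (SD, n = 3), an LFC of 0.77 (SE 0.17, edgeR adjusted p = 0.00417). *Sema3c* rose from 16.8 ± 2.05 to 27.7 ± 0.999 CPM (SD, n = 3), an LFC of 0.72 (SE 0.09, edgeR adjusted p = 0.000145). *Sema3c* was the most abundant of its class per length, while *Sema3e*, *Sema3f* and *Sema3g* were not past the threshold, with LFCs of -0.46, 0.16 and 0.54.

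The 6 class 4 semaphorins, transmembrane ligands of B-type plexins, were all tested, and 2 rose. *Sema4b* rose from 11.1 ± 1.04 to 21.8 ± 2.54 CPM (SD, n = 3), an LFC of 0.97 (SE 0.11, edgeR adjusted p = 6.56e-05), the largest of any semaphorin. *Sema4c* had an LFC of 0.56 (SE 0.10, edgeR adjusted p = 0.000857). *Sema4a*, the most abundant of the class per length, was counted 981, 954 and 1002 times in the WT libraries, compared with 1069, 1008 and 1205 times in the KO libraries, with an LFC of 0.05 whose 95% interval ran from -0.11 to 0.21. *Sema4d*, *Sema4f* and *Sema4g* were likewise not past the threshold, with LFCs of 0.23, 0.43 and 0.10.

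Among the 7 semaphorins of classes 5 to 7, which are membrane-anchored, 5 rose, 1 fell and *Sema5b* (LFC 0.13) was not past the threshold. *Sema7a* (chr9:57939596-57962865), which is held in the membrane by a lipid anchor, had 793, 699 and 812 counts in WT1 to WT3 and 1457, 1487 and 1635 in KO1 to KO3. All KO libraries stood far above all WT libraries, with small spread inside each group. This was a change from 44.0 ± 2.02 to 81.3 ± 5.76 CPM (SD, n = 3), an LFC of 0.89 (SE 0.06, edgeR adjusted p = 4.59e-06). Per kb of exon, *Sema7a* was the most abundant semaphorin in WT, at 13.3 CPM per kb, and held 26.2 ± 0.569% of the summed semaphorin level per length in WT and 33.8 ± 0.426% in KO libraries (SD, n = 3). Class 5 and 6 members that rose were *Sema5a* (LFC 0.87, edgeR adjusted p = 0.000138), *Sema6d* (LFC 0.74, edgeR adjusted p = 0.00404), *Sema6b* (LFC 0.71, edgeR adjusted p = 0.0297) and *Sema6c* (LFC 0.55, edgeR adjusted p = 0.00048). Of these, *Sema6b* was not past the threshold without WT1, WT2, KO2 or KO3, with LFCs from 0.63 to 0.74 and edgeR adjusted p from 0.0641 to 0.0987.

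*Sema6a*, a transmembrane ligand of A-type plexins, was the only semaphorin of the 18 tested to fall. It had 29, 28 and 44 counts in the WT libraries against 20, 21 and 17 in the KO libraries, an LFC of -0.90 (SE 0.27, edgeR adjusted p = 0.0168). WT3 was the highest library, and without it the LFC was -0.68 with an edgeR adjusted p of 0.0816. Without KO3, the lowest library, it was -0.81 with an edgeR adjusted p of 0.0644. Per kb of exon, *Sema6a* had a level of 0.220 CPM per kb in WT and *Sema6c*, its relative in the same class, one of 6.58 CPM per kb.

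Plexins and neuropilins, the semaphorin receptors, counted 11 members, of which 10 were tested, 5 rose and 1 fell (median LFC 0.45). *Nrp1* (chr8:128358591-128505476), a co-receptor for class 3 semaphorins and for VEGF, was counted 118, 72 and 63 times in the WT libraries, compared with 275, 227 and 217 times in the KO libraries. The lowest KO library, KO3, stood well above the highest WT library, WT1. Its level rose from 4.78 ± 1.35 to 12.7 ± 1.36 CPM (SD, n = 3), an LFC of 1.41 (SE 0.17, edgeR adjusted p = 0.000117). *Nrp2*, its only paralog, had overlapping values of 7.81 ± 0.826 and 8.23 ± 1.09 CPM (SD, n = 3), with an LFC of 0.08 and a 95% interval from -0.22 to 0.38.

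*Plxnd1* (chr6:115954811-115995339), a plexin best known from blood vessels, had 256, 230 and 305 counts in WT1 to WT3 and 505, 620 and 628 in KO1 to KO3. That was an LFC of 1.05 (SE 0.12, edgeR adjusted p = 7.31e-05), with CPM of 15.1 ± 1.90 and 31.2 ± 4.49 (SD, n = 3). *Sema3e*, its ligand, was not past the threshold and had overlapping counts of 24, 33 and 55 in WT and 33, 29 and 26 in KO libraries. *Plxnb1*, a receptor of *Sema4d*, rose with an LFC of 0.78 (SE 0.14, edgeR adjusted p = 0.00133). *Plxnc1*, the receptor of *Sema7a*, rose together with that ligand, with an LFC of 0.56 (SE 0.09, edgeR adjusted p = 0.000522). *Plxna1* had a smaller LFC of 0.33 (SE 0.09, edgeR adjusted p = 0.0129), which was 0.24 with an adjusted p of 0.0580 without WT2, its lowest WT library.

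*Plxna2* (chr1:194619791-194816869), a receptor of *Sema6a*, had 852, 751 and 802 counts in the WT libraries against 715, 642 and 724 in the KO libraries. It fell from 46.0 ± 1.56 to 36.9 ± 1.41 CPM (SD, n = 3), an LFC of -0.32 (SE 0.06, edgeR adjusted p = 0.0015). *Plxnb2* (chr15:89155546-89182018), the most abundant member with a guidance role in WT at 24.6 CPM per kb, was counted 3577, 2945 and 3433 times in the WT libraries, compared with 3747, 2208 and 3351 times in the KO libraries. In CPM, KO2 stood apart at 122, with KO1 at 193 and KO3 at 177, the groups overlapped, and the gene was not past the threshold, with an LFC of -0.21 (SE 0.13, edgeR adjusted p = 0.200). Without KO2 the LFC of *Plxnb2* was -0.03 (edgeR adjusted p = 0.738), and without KO1 it was -0.34 (edgeR adjusted p = 0.0280).

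**Figure D2:**
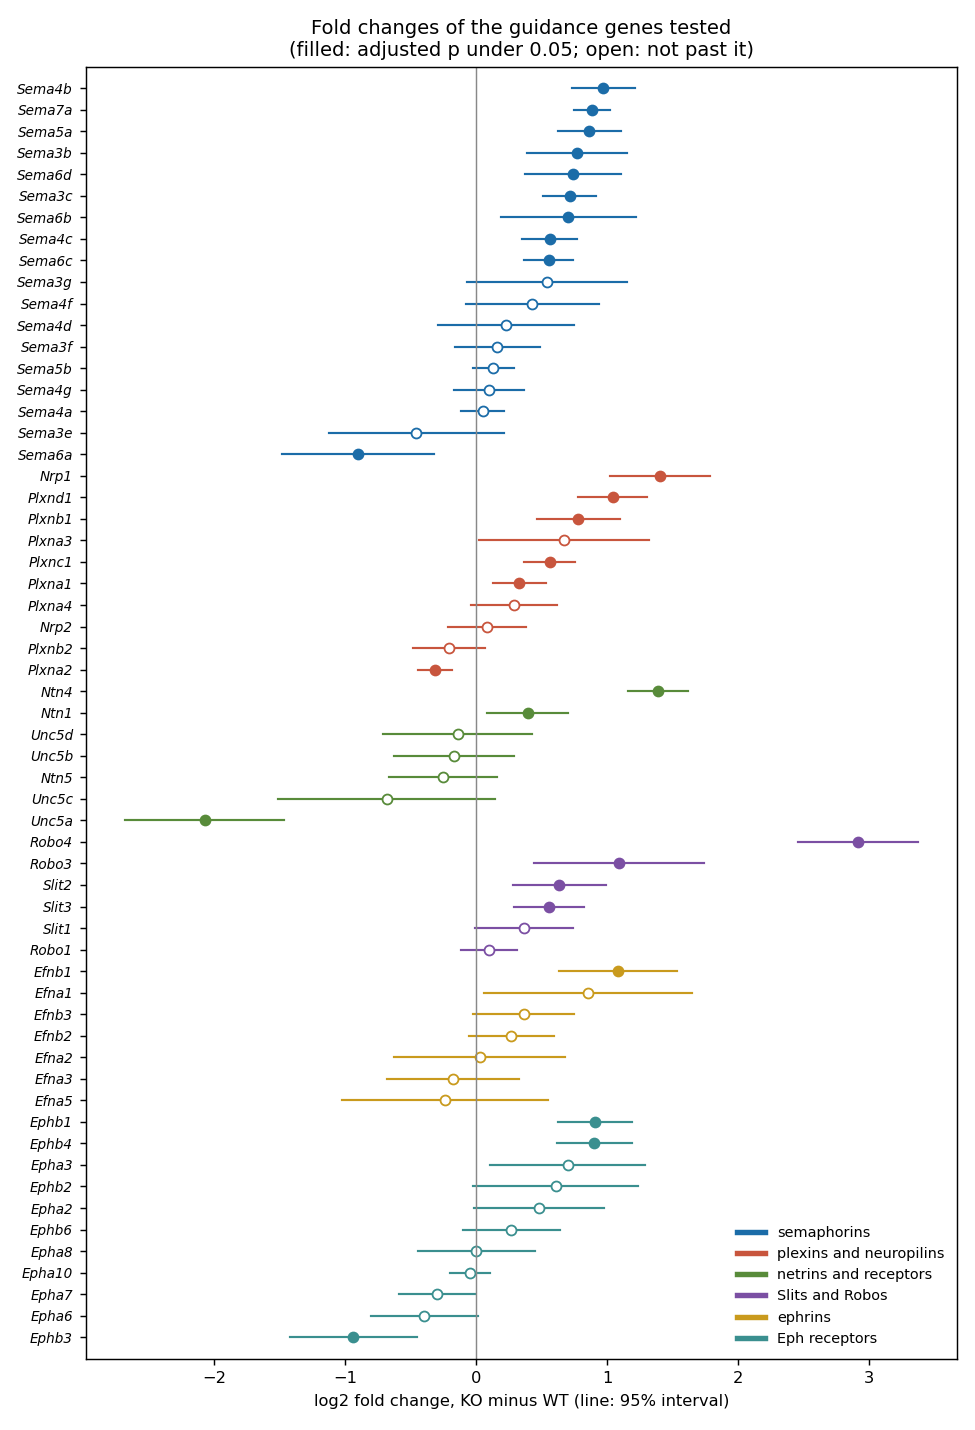
Log2 fold change (MLX KO minus WT) of the guidance genes tested, ordered by family and by value, with lines for the 95% interval and filled points for an adjusted p under 0.05. *Robo4* at 2.92 and *Unc5a* at -2.07 lie farthest from 0, and most filled points lie to its right.

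Netrins and their receptors made up 8 members, of which 7 were tested, 2 rose and 1 fell (median LFC -0.17). The 3 netrins were all tested and 2 rose, while of 5 netrin receptors in the set, 4 were tested and 1 fell. Rises among these receptors numbered 0 in edgeR, at an unadjusted p under 0.05 and in DESeq2 alike. In edgeR 24.8% of all genes tested were called higher, and 4 genes are too few to show a lack of rises. *Ntn4* (chr10:93641049-93745972), a laminin-related protein of basement membranes, had 102, 82 and 106 counts in WT1 to WT3 and 292, 259 and 267 in KO1 to KO3. Replicates agreed closely, and the level rose from 5.52 ± 0.402 to 14.5 ± 0.489 CPM (SD, n = 3), an LFC of 1.39 (SE 0.10, edgeR adjusted p = 5.98e-06). *Ntn1*, the founding netrin, had an LFC of 0.39 (SE 0.14, edgeR adjusted p = 0.0391), a call lost in 10 of the 17 alternatives. Without WT1, WT2, WT3, KO2 or KO3 its LFC was between 0.30 and 0.44, with edgeR adjusted p from 0.0520 to 0.147.

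*Ntn5* (chr7:45684022-45694556) had 78, 51 and 77 counts in the WT libraries against 69, 66 and 50 in the KO libraries, and its LFC of -0.25 (95% interval -0.66 to 0.16) was not past the threshold. It was the most abundant member of the family per length in WT, at 1.76 CPM per kb, and 519 bases of its exons overlap exons of *Sec1* on the other strand, so that reads there cannot be assigned without strand. The makeup of the netrins differed accordingly. *Ntn4* held 35.7 ± 0.756% of the summed netrin level per length in WT and 59.4 ± 3.03% in KO libraries (SD, n = 3), while *Ntn5* held 42.4 ± 3.61% and 22.6 ± 2.54%.

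*Unc5a* (chr13:54945151-55006018), a receptor through which netrins repel axons and which carries a death domain, was counted 90, 77 and 133 times in the WT libraries, compared with 16, 33 and 27 times in the KO libraries. The lowest WT library had over 2 times the counts of the highest KO library. The level fell from 5.71 ± 1.55 to 1.36 ± 0.504 CPM (SD, n = 3), an LFC of -2.07 (SE 0.28, edgeR adjusted p = 0.000187). *Unc5b*, *Unc5c* and *Unc5d*, its paralogs, had LFCs of -0.17, -0.68 and -0.14 and were not past the threshold. *Unc5a* made up 68.1 ± 5.67% of the summed UNC5 level per length in WT and 37.1 ± 9.97% in KO libraries (SD, n = 3), and *Unc5b* 20.2 ± 2.69% and 40.7 ± 5.01%. The exons of *Unc5a* share 34 bases with those of *Hk3* on the other strand, which rose (LFC 0.88, edgeR adjusted p = 0.0456), and the part of this overlap in the counts of either gene was not tested. *Dcc*, the netrin receptor that gives the attractive response, had between 2 and 4 counts in every library and was not tested.

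Of the 7 Slits and Robos, 6 were tested and 4 rose (median LFC 0.60), while 0 fell in edgeR, also at an unadjusted p under 0.05 and in DESeq2. Over all genes tested, edgeR called 24.8% higher and 20.6% lower, and 6 genes are too few to show a lack of falls. *Slit3* (chr11:35121456-35708507), a secreted ligand and the most abundant of this family per length in WT at 2.00 CPM per kb, had 207, 171 and 260 counts in WT1 to WT3 and 335, 308 and 366 in KO1 to KO3. Its level went from 12.1 ± 2.18 to 17.9 ± 1.29 CPM (SD, n = 3), an LFC of 0.56 (SE 0.12, edgeR adjusted p = 0.00343). *Slit2* had an LFC of 0.63 (SE 0.16, edgeR adjusted p = 0.00815), and *Slit1* had 190, 170 and 119 counts in the WT libraries against 255, 226 and 184 in the KO libraries, with overlapping groups and an LFC of 0.37 (SE 0.17, adjusted p = 0.103), which was past the threshold with the littermate pair as a block in edgeR but not in DESeq2.

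*Robo4* (chr9:37401902-37414023), the Robo of endothelial cells, was counted 21, 13 and 26 times in the WT libraries, compared with 141, 161 and 186 times in the KO libraries. Every KO library held more than 5 times the counts of any WT library. Its level rose from 1.13 ± 0.321 to 8.68 ± 1.30 CPM (SD, n = 3), an LFC of 2.92 (SE 0.21, edgeR adjusted p = 4.43e-06). *Robo3* (chr9:37416045-37433436), a close neighbour on the chromosome and known from axons crossing the midline, had 14, 8 and 8 counts in WT1 to WT3 and 24, 21 and 24 in KO1 to KO3. That was 0.566 ± 0.152 and 1.22 ± 0.0558 CPM (SD, n = 3), an LFC of 1.09 (SE 0.29, edgeR adjusted p = 0.0109). *Robo3* had enough counts for the edgeR test only through its KO libraries. In DESeq2 it was not past the threshold (LFC 1.08, adjusted p = 0.0904). *Robo1*, the Robo with the highest level per length in WT, had an LFC of 0.10 (95% interval -0.11 to 0.31). *Robo4* therefore went from 20.4 ± 3.92% to 62.5 ± 3.31% of the summed Robo level per length (SD, n = 3), while *Robo1* held 70.0 ± 2.39% in WT and 29.9 ± 2.59% in KO libraries.

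*Robo4*, *Nrp1*, *Plxnd1* and *Ephb4* are all known from blood vessels, and endothelial markers were read beside them. These 4 were picked from the members that rose. *Nrp2*, the paralog of *Nrp1*, was not past the threshold (LFC 0.08). Neither were *Sema3e*, the ligand of *Plxnd1* (LFC -0.46), and *Efnb2*, the gene of ephrin-B2, which *Ephb4* binds (LFC 0.27). Of 10 endothelial markers tested, 3 rose, while 24.8% of all genes tested were called higher. The 3 were *Kdr* (LFC 2.05), *Cdh5* (LFC 0.83) and *Esam* (LFC 0.62), and the median LFC of the 10 markers was 0.42. In edgeR 0 fell, while 20.6% of all genes tested were called lower. None fell at an unadjusted p under 0.05 or in DESeq2 either, and none was at 0 in a library. *Pecam1*, *Tek*, *Tie1*, *Emcn*, *Flt1*, *Egfl7* and *Vwf* were not past the threshold, with LFCs of 0.55, 0.29, 0.24, 0.72, -0.25, -0.29 and 0.06. The summed endothelial markers ranged from 50.4 to 62.7 CPM in WT and from 66.6 to 72.7 CPM in KO libraries. Their part in the rise of the 4 genes was not tested.

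Ephrins, which are the membrane-bound ligands of Eph receptors, counted 8 members, of which 7 were tested and 1 rose (median LFC 0.27), while 0 fell in edgeR, also at an unadjusted p under 0.05 and in DESeq2. Over all genes tested, edgeR called 24.8% higher and 20.6% lower, and 7 genes are too few to show a lack of falls. *Efnb1* (chrX:99136061-99149022), a transmembrane ephrin, had 362, 252 and 227 counts in the WT libraries against 444, 788 and 666 in the KO libraries. KO1 was the lowest KO library and WT1 the highest WT library, and they carry the same pair number. The level rose from 16.0 ± 3.14 to 33.9 ± 10.4 CPM (SD, n = 3), an LFC of 1.08 (SE 0.20, edgeR adjusted p = 0.00153). *Efnb1* was also the most abundant ephrin per length, at 4.63 CPM per kb in WT and 9.83 in KO libraries. The remaining ephrins tested were not past the threshold, with LFCs from -0.24 (*Efna5*) to 0.86 (*Efna1*). *Efna1* was counted 6, 6 and 13 times in the WT libraries, compared with 17, 16 and 16 times in the KO libraries, with a wide 95% interval from 0.06 to 1.65. It had enough counts for the test only through its KO libraries.

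Eph receptors were 14 genes, of which 11 were tested, 2 rose and 1 fell. All 3 calls were among the 5 EphB receptors, the usual partners of B-type ephrins, and of 6 EphA receptors tested 0 were called in edgeR or in DESeq2, with 2 at an unadjusted p under 0.05. With the littermate pair as a block in edgeR, 5 Eph receptors were called, the same 3 together with *Epha3* (LFC 0.71) and *Epha7* (LFC -0.30), neither of which was called with the same block in DESeq2. The difference between the subfamilies was not tested. *Ephb1* rose from 8.07 ± 1.03 to 15.2 ± 2.05 CPM (SD, n = 3), an LFC of 0.91 (SE 0.13, edgeR adjusted p = 0.000274). *Ephb4*, the receptor of ephrin-B2 on veins, rose from 4.45 ± 0.460 to 8.33 ± 0.550 CPM (SD, n = 3), an LFC of 0.90 (SE 0.13, edgeR adjusted p = 0.000314). Exons of *Ephb4* overlap by 33 bases those of *Zan*, a gene of the other strand whose LFC was -0.06 (edgeR adjusted p = 0.547). Larger overlaps with other-strand genes that have no counts here were found in other called genes. They spanned 970 bases in *Plxna1*, 334 in *Sema4c*, 257 in *Plxnb1* and 152 in *Ephb1*, and their part in the counts was not tested.

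*Ephb3* (chr16:21204620-21223309), by contrast, had 49, 44 and 66 counts in WT1 to WT3 and 27, 28 and 34 in KO1 to KO3. It fell from 3.03 ± 0.605 to 1.58 ± 0.205 CPM (SD, n = 3), an LFC of -0.94 (SE 0.22, edgeR adjusted p = 0.0052). Within the EphB receptors, *Ephb3* held 13.1 ± 1.50% of the summed level per length in WT and 4.47 ± 0.359% in KO libraries (SD, n = 3). *Ephb2* and *Ephb6* had LFCs of 0.61 and 0.27 and were not past the threshold. *Epha10* (chr4:124881530-124917801), a receptor without kinase activity and the most abundant Eph receptor per length in WT at 4.03 CPM per kb, had 553, 441 and 529 counts in the WT libraries against 508, 520 and 554 in the KO libraries. Its LFC was -0.05, with a 95% interval from -0.20 to 0.11.

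**Figure D3:**
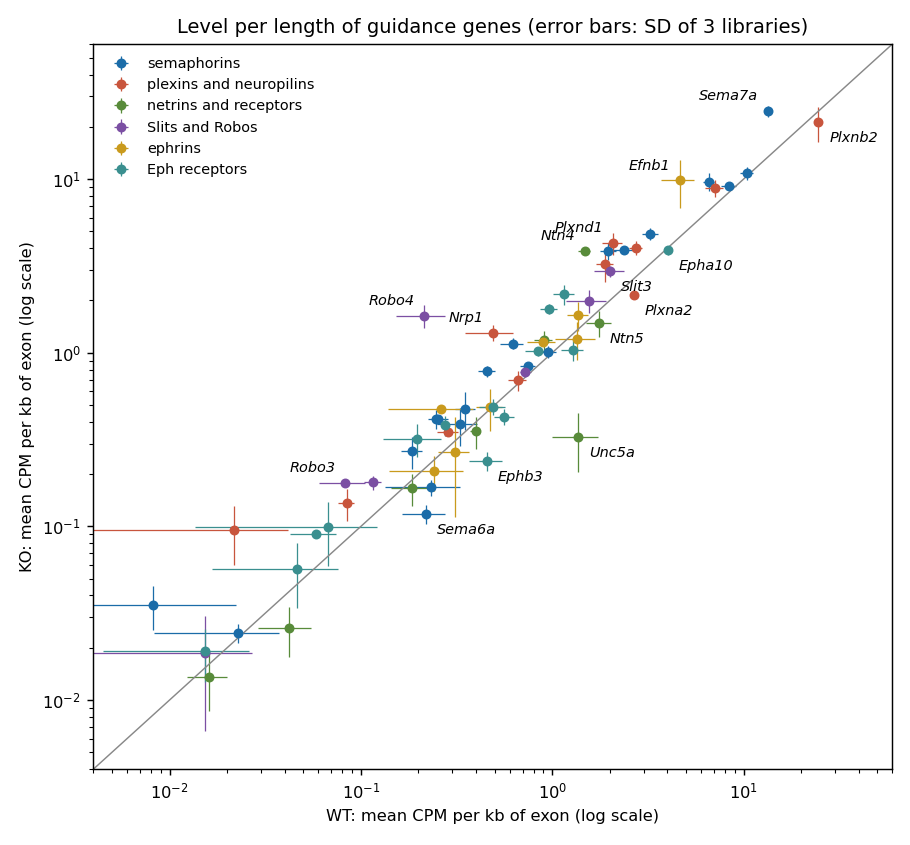
Mean CPM per kb of exon (log scales) in WT (x axis) and MLX KO testes (y axis) of the 68 genes with a guidance role, with the SD of 3 libraries as error bars, which run off the axis where they reach 0, and a grey line of equal levels. *Plxnb2* and *Sema7a* are the most abundant in WT at 24.6 and 13.3 CPM per kb, *Robo4* lies far above the line and *Unc5a* far below it.

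By role, 31 of 34 ligands were tested, of which 14 rose and 1 fell, with a median LFC of 0.43. Of 34 receptors, 28 were tested, 9 rose and 3 fell, with a median LFC of 0.28. Called in either direction were 15 of the 31 ligands and 12 of the 28 receptors, both near the 45.4% over all genes tested. By direction, 24.8% of all genes were called higher and 20.6% lower. *Sema6a* was thus the 1 ligand that fell, and *Unc5a*, *Plxna2* and *Ephb3* the receptors. The difference between ligands and receptors was not tested. In total, 33 members tested were not past the threshold, 21 with an LFC above 0 and 12 below, from -0.68 (*Unc5c*) to 0.86 (*Efna1*). Their median SE was 0.19 and that of the called members 0.13. Single libraries decided some of these calls in edgeR. *Epha3* (LFC 0.98) and *Sema3e* (LFC -0.74) were called without WT1. *Efna1* (LFC 1.31), *Epha7* (LFC -0.41) and *Sema5b* (LFC 0.21) were called without WT3. *Efnb2* (LFC 0.41), *Epha7* (LFC -0.41) and *Plxnb2* (LFC -0.34) were called without KO1, and *Epha3* (LFC 0.87) and *Slit1* (LFC 0.49) without KO3. *Unc50*, 1 of the 2 genes matched by name only, had an LFC of -0.03 (95% interval -0.20 to 0.13).

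Too few counts for the test were found in 10 members, which had between 0 and 16 counts in a library. They were *Sema3a*, *Sema3d*, *Plxnb3*, *Dcc*, *Robo2*, *Efna4*, *Epha1*, *Epha4*, *Epha5* and *Unc5cl*. *Plxnb3* was counted 0, 4 and 3 times in the WT libraries, compared with 12, 7 and 16 times in the KO libraries, without overlap. *Sema3d* had 4, 0 and 0 counts in WT1 to WT3 and 4, 6 and 7 in KO1 to KO3, with overlap in 1 library of each group. *Plxnb3* had enough counts for the test, and was called in edgeR, without WT2 (LFC 2.82), WT3 (LFC 2.35) or KO2 (LFC 2.40). Without WT1, its library with 0 counts, it was tested but not called (LFC 1.53, edgeR adjusted p = 0.0538). In these fits it reached the test only through its KO libraries, so the calls add no support for a rise. With all 6 libraries and no filter on low counts it was called (LFC 2.15, edgeR adjusted p = 0.0207), the only 1 of these 10 genes called that way. That call rests on the same low WT counts and adds no support either.

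The intracellular and co-receptor partners of these families were read from 5 lists of 86 genes, of which 83 were tested, 31 rose and 13 fell, with a median LFC of 0.07. Beside these counts and those of each list below, 24.8% of all genes tested were called higher and 20.6% lower. With library size alone in place of TMM, 39 were higher and 9 lower. Over all genes, here and for each list below, that setting called 5343 higher and 1268 lower, and TMM 3634 and 3015. Partners of the semaphorin-plexin pathway had 13 higher and 3 lower of 24 tested (median LFC 0.39). *Rnd1*, a small GTPase that binds plexins, had 2, 4 and 3 counts in the WT libraries against 22, 13 and 17 in the KO libraries, an LFC of 2.37 (SE 0.43, edgeR adjusted p = 0.00117). *Fes*, a tyrosine kinase that acts below plexins, was counted 9, 16 and 20 times in the WT libraries, compared with 41, 41 and 42 times in the KO libraries, an LFC of 1.34 (SE 0.29, edgeR adjusted p = 0.00328). Both rose from low levels, and *Rnd1* had enough counts for the test only through its KO libraries.

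For ephrin-Eph partners, 5 of 18 were higher and 4 lower (median LFC 0.02). *Vav2*, a guanine nucleotide exchange factor that Eph receptors recruit, had 2293, 2059 and 2276 counts in WT1 to WT3 and 512, 505 and 505 in KO1 to KO3. This fall from 127 ± 5.21 to 27.0 ± 0.804 CPM (SD, n = 3) was an LFC of -2.23 (SE 0.05, edgeR adjusted p = 2.3e-09), with very small spread in the KO libraries. Netrin co-receptors and effectors had 6 higher and 1 lower of 20 (median LFC 0.00), Slit-Robo effectors 2 higher and 4 lower of 10 (median LFC -0.06), and shared cytoskeletal effectors 5 higher and 1 lower of 11 (median LFC 0.11). For Slit-Robo effectors the median was 0.08 with library size alone, and there 4 were higher and 3 lower.

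**Figure D4:**
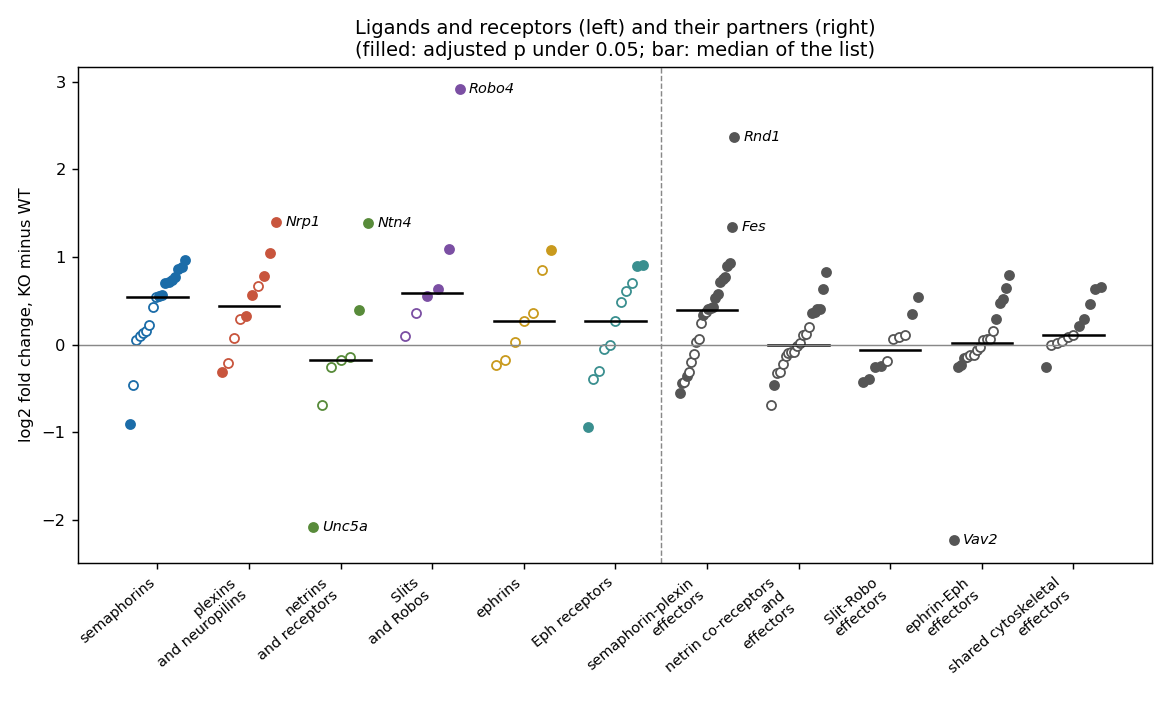
Log2 fold changes (MLX KO minus WT) of each gene tested, by family of ligands and receptors (left of the dashed line) and by list of partners (right), with black bars at list medians and filled points for an adjusted p under 0.05. Medians of the Slits and Robos and of the semaphorins are highest at 0.60 and 0.55, and *Vav2* at -2.23 is the lowest point.

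Markers of the cell types in the testis were read beside the members. For each marker list, here and for germ cells below, the share over all genes tested was 24.8% called higher and 20.6% lower. Of 11 Sertoli cell markers, all rose (median LFC 0.65), with a summed level between 1088 and 1137 CPM in WT and between 1617 and 1926 CPM in KO libraries. All 7 Leydig cell markers rose (median LFC 1.07, 840 to 866 CPM in WT and 1822 to 2388 CPM in KO libraries). Macrophage markers had 8 higher and 1 lower (*Aif1*) of 9, with a median LFC of 1.28. Their summed levels were 454 to 469 CPM in WT and 465 to 499 CPM in KO libraries. Most of that sum was *Aif1* itself, at a mean of 377 CPM in WT and 299 CPM in KO libraries. Peritubular myoid markers had 5 higher of 6 (median LFC 0.59, 104 to 122 and 157 to 178 CPM) and interstitial fibroblast markers 5 of 6 (median LFC 1.06, 70.2 to 81.7 and 136 to 183 CPM). Spermatogonium markers had 2 higher and 1 lower of 9 (median LFC 0.17, 143 to 148 and 159 to 170 CPM).

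Germ cell markers of later stages were lower. Of 9 spermatocyte markers 7 fell (median LFC -0.16, 1743 to 1797 CPM in WT and 1525 to 1600 CPM in KO libraries), all 8 round spermatid markers fell (median LFC -0.23, 2059 to 2110 and 1729 to 1847 CPM) and all 9 elongating spermatid markers fell (median LFC -0.53, 21084 to 22042 and 12414 to 15188 CPM). With library size alone, 1 spermatocyte and 4 round spermatid markers were still lower. Over all genes, that setting called 1268 lower, and TMM 3015. Of 6 nerve or Schwann cell markers, 5 were tested and 1, *Tubb3*, rose (median LFC 0.14, 51.6 to 55.1 and 76.4 to 81.1 CPM). Among all markers listed, *Nefl* alone was at 0 in a library. The part of these markers' cell types in the 23 rises and 4 falls of guidance genes was not tested.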

How the data were processed

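RNA from the 6 testes libraries was sequenced by the authors, who aligned reads to mm10 with TopHat and deposited counts of reads on each gene symbol, as whole numbers and without normalization. The submitters' processing notes name bcl2fastq 1.8.4, while the counting tool, gene annotation and strand setting are not given in the sources used here. Of 17933 rows, 2 repeated another and were used once. The deposited columns of the authors' own comparison (mean, fold change, test score, p-values) were left out, and the 16 ChIP-Seq samples were not analysed here.

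Counts were compared in edgeR 4.0.16 (R 4.3.3) with its default filter (minimum count 10), TMM, genotype as the only term and the two-sided quasi-likelihood test, Benjamini-Hochberg adjusted over 14640 genes. The standard error is the LFC divided by the root of the test's F, and its 95% interval uses the test's degrees of freedom. Levels per length used exon unions of GENCODE M21, coordinates and promoter windows RefSeq for GRCm38.p6. Both were matched by symbol, exon lengths and coordinates for 70 of 70 members. The code was tested on simulated data. Genes with few counts carry more counting error, which the count model includes.

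Deviations from group means correlated over genes (r = 0.145, 0.0363 and 0.121) for WT and KO libraries that share a number, with no other such r above 0.0330. The sample titles call the replicates paired and the study describes littermate pairs. The alternatives were DESeq2 1.42.0 with and without the pair, the pair as a block in edgeR, 3 other normalizations, 2 other filters, and each library or pair left out in turn. Every member past the threshold is named. Counts per library are printed for those with an LFC of at least 1 in size, for those that fell and for the most abundant member per length of each family, and for other members chosen after their values were seen. Members, partner lists and marker lists were chosen with earlier results of these data known.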

Additional observations from a re-analysis of the deposited data

How the results depend on the processing

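Across 17 alternatives, 19 of the 27 called members kept their call in every one, 8 lost it in at least 1 and 0 reversed. *Ntn1* lost its call in 10 alternatives, *Sema6b* in 9, *Sema6a* in 6, *Robo3* in 4, *Slit2* in 3 and *Plxna1* in 2, and *Sema3b* and *Sema6d* in 1, DESeq2 with the pair as a block. The number of members called was 27 and ranged from 20 (DESeq2 with the block) to 35 (library size alone), and from 22 to 30 with 1 library or pair left out. Calls over all genes moved as well, from 6649 to 4579 in DESeq2 with the block and 6611 with library size alone. With 1 library or pair left out they ranged from 3436 (without pair 2) to 7395 (without KO1). With the pair as a replicate block edgeR called 30 members, the same 27 and *Epha3*, *Epha7* and *Slit1*, so that Eph receptors called went from 3 to 5, and in DESeq2 with the block 6 semaphorins (10) and 2 Slits and Robos (4) were called. The block in edgeR changed no other call of a member. Library size alone gave 3 ephrins (1) and 5 Eph receptors (3). Leaving out a library or pair gave between 1 and 2 ephrins and between 2 and 5 Slits and Robos, with 2 of the latter without pair 2 or pair 3, and 2 ephrins without WT3, KO1, pair 1 or pair 3. The cause of these differences was not tested. Of the members not tested, *Plxnb3*, kept out by its low WT counts, was called without a filter (LFC 2.15), which adds no support for a rise. Depth kept 10 members, with at most 16 counts in a library, from being tested.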
